A study of Mus musculus with 186 samples.

Results

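The insulin-like growth factor (IGF) ligands, receptors and binding proteins were followed cell by cell in the mammary epithelium of adult mice. The 10 members, chosen by name, were the ligands Igf1 and Igf2, the receptors Igf1r and Igf2r, and the 6 binding proteins Igfbp2 to Igfbp7. They are 10 of the 25275 named genes in the count files, and each had an entry, which could be 0, in every cell's file. The cells came from untreated FVB/NJ females of 10 weeks of age and were sorted as Lin-CD29hiCD24+ (Adult basal) or Lin-CD29loCD24+ (Adult luminal), where Lin- excluded cells with CD31, CD45 or Ter119 on their surface. Of 186 captured cells, 72 basal and 76 luminal cells passed the study's limits on reads and genes. Basal cells lay on PCR plates A (50 cells) and B (22 cells) and luminal cells on plates B (24 cells) and C (52 cells), so that only plate B held both. The labels do not tie a cell to a mouse. Each population was therefore treated as 1 sample, and all comparisons below are descriptions with no test between populations. Intervals are 95%, the limit given beside a count of 0 is 3 counts of the total, and both cover counting error only, since reads without molecular identifiers are not independent molecules.

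The 2 ligands are small secreted growth factors that signal through the Igf1r tyrosine kinase, while Igf2r, the mannose 6-phosphate receptor, carries Igf2 into the cell for degradation. Binding proteins hold IGFs outside the cell, extend their half-life or keep them from the receptor, and secreted proteases such as pappalysin free the ligand again. In the mammary gland, Igf1 from the stroma supports ductal growth and Igfbp5 is best known for its rise in the epithelium when lactation ends.

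In these cells the binding proteins fell into unlike sets by population. Igfbp5 was abundant in both. Igfbp3, Igfbp2 and the receptor Igf1r were read mainly in basal cells, where a cell typically held reads of several binding proteins, whereas a luminal cell typically held Igfbp5 alone. Reads of Igfbp4, Igfbp6 and Igfbp7, and of both ligands, came mostly from a few cells, many of which also held transcripts of fibroblasts, endothelial cells or pericytes.

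The upstream sequences of the 4 members that carry these differences are shown because Igfbp2, Igfbp3 and Igf1r leaned to the same population, while Igfbp5, the neighbour of Igfbp2, did not. Igfbp2 and Igfbp5 lie on chromosome 1 of GRCm38 (mm10) on opposite strands, with their 3' ends facing each other across 5.59 kb. Igfbp3 lies on chromosome 11, 3.539 kb from Igfbp1 in the same arrangement, and Igf1r on chromosome 7. Each line below runs 5' to 3' on the strand of the gene and ends at the base before a transcript start, except that of Igfbp5, which has 231 bases and stops 19 bases earlier because annotated exon was left out. The start used for Igfbp3 lies inside the full annotated span of that gene. The sequences are from RefSeq (GRCm38.p6), in which all 10 members had a promoter entry (that of Igf1 lay wholly in annotated exon), and capitals mark a GC box (GGGCGG on either strand). The windows are chr1:72824230-72824479 (plus strand) for Igfbp2, chr11:7213924-7214173 (minus strand) for Igfbp3, chr7:67952007-67952256 (plus strand) for Igf1r and chr1:72874885-72875115 (minus strand) for Igfbp5.
Igfbp2: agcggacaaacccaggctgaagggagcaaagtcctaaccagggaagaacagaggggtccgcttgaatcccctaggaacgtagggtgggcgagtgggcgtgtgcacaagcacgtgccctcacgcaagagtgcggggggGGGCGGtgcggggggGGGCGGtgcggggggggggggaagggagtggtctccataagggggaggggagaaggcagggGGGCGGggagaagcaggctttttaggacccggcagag
Igfbp3: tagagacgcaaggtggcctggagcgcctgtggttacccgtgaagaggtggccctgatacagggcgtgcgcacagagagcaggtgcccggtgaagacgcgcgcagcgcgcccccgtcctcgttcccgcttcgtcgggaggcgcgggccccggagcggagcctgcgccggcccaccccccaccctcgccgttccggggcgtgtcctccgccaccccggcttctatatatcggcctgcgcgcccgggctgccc
Igf1r: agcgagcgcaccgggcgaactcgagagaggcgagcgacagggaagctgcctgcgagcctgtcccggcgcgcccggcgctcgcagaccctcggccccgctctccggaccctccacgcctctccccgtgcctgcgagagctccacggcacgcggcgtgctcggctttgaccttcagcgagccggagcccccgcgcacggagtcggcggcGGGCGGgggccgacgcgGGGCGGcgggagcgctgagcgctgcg
Igfbp5: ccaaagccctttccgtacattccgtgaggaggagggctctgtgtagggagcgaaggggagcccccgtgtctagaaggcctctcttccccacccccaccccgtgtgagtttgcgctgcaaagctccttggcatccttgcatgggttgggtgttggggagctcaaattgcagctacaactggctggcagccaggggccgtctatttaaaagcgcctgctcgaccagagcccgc
A GC box was found 3 times for Igfbp2, 2 times for Igf1r and not at all for Igfbp3 and Igfbp5 in the 250 bases before the start, against 32.7% of all 32851 promoter windows of 250 bases with at least 1. The letters TATAAA, on either strand, were in none of the 4 windows and in 12.4% of all. The same 250 bases, for Igfbp5 with the 19 not printed, held 42 CpG dinucleotides for Igf1r, 32 for Igfbp3, 14 for Igfbp2 and 10 for Igfbp5, against a median of 6 over all windows. A second annotated start of Igfbp2, further downstream and not printed, had 0 GC boxes and 11 CpG dinucleotides. These counts describe letters in a window, and no reading of factor binding or methylation was made from them.

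Depth was similar across the 2 populations. The 148 cells held 69969 to 3239646 reads in named nuclear genes, without mitochondrial and ribosomal protein genes, with medians of 1194690 in basal and 1467390 in luminal cells. Detection is given after each cell was thinned at random to 50000 reads, and levels are CPM, the reads of a gene per 1000000 summed reads of a population. At 50000 reads the median basal cell showed 2626 genes (2930 on plate A and 1583 on plate B) and the median luminal cell 3412. Of 10 basal markers, which include Krt5, Krt14 and Acta2, a basal cell showed a median of 9 and a luminal cell 0. Of 10 luminal markers, which include Krt8, Krt18 and Epcam, a luminal cell showed a median of 9 and a basal cell 2. Every cell but 3 showed more markers of its labelled lineage than of the other. Basal cell 13 (plate A) and luminal cell 63 (plate C) each showed 8 basal and 8 luminal markers, and basal cell 90 (plate B) showed 0 basal and 7 luminal markers. Results that rest on them are given with and without them. Basal cell 20 (10 basal and 9 luminal markers) and luminal cell 62 (10 luminal and 6 basal markers) also held many markers of the other lineage.

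A second set of cells stood apart. In 9 basal and 10 luminal cells, at least 4 of 20 markers of endothelial cells, fibroblasts or pericytes had a read at 50000 reads, although the sort excludes CD31, which Pecam1 of the endothelial list encodes. No cell reached 4 of 20 immune markers. The 6 endothelial-marked basal cells were all on plate B. The summed fibroblast markers ranged from 4.65 to 33315 CPM in the 9 basal cells and from 169 to 44769 CPM in the 10 luminal cells, where 16 and 18 of the 20 had a read and Twist2 was at 0 in both. Endothelial markers summed to 0.678 to 12587 CPM in the 9 basal cells (18 of 20 with a read, Cldn5 and Erg at 0) and to 1.48 to 5853 CPM in the 10 luminal cells (20 of 20). Pericyte markers summed to 1.01 to 4903 CPM (16 of 20 with a read) and to 28.4 to 6113 CPM (20 of 20). In the remaining 63 basal and 66 luminal cells the median summed fibroblast level was 85.5 and 16.3 CPM, the endothelial level 1.03 and 33.9 CPM and the pericyte level 2.68 and 34.9 CPM. Single unmarked cells reached 4562 and 18947 CPM, 1071 and 2233 CPM, and 8642 and 1411 CPM of these lists, so that the summed levels of marked and unmarked cells overlapped. The 19 cells still showed 2 to 10 markers of their own lineage. They held 10.7% of all basal and 13.1% of all luminal reads, the share to set beside each member's share below. Whether they are mixed captures, other cells that passed the sort, or epithelial cells was not tested, and no doublet caller was run.

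**Figure D1:**
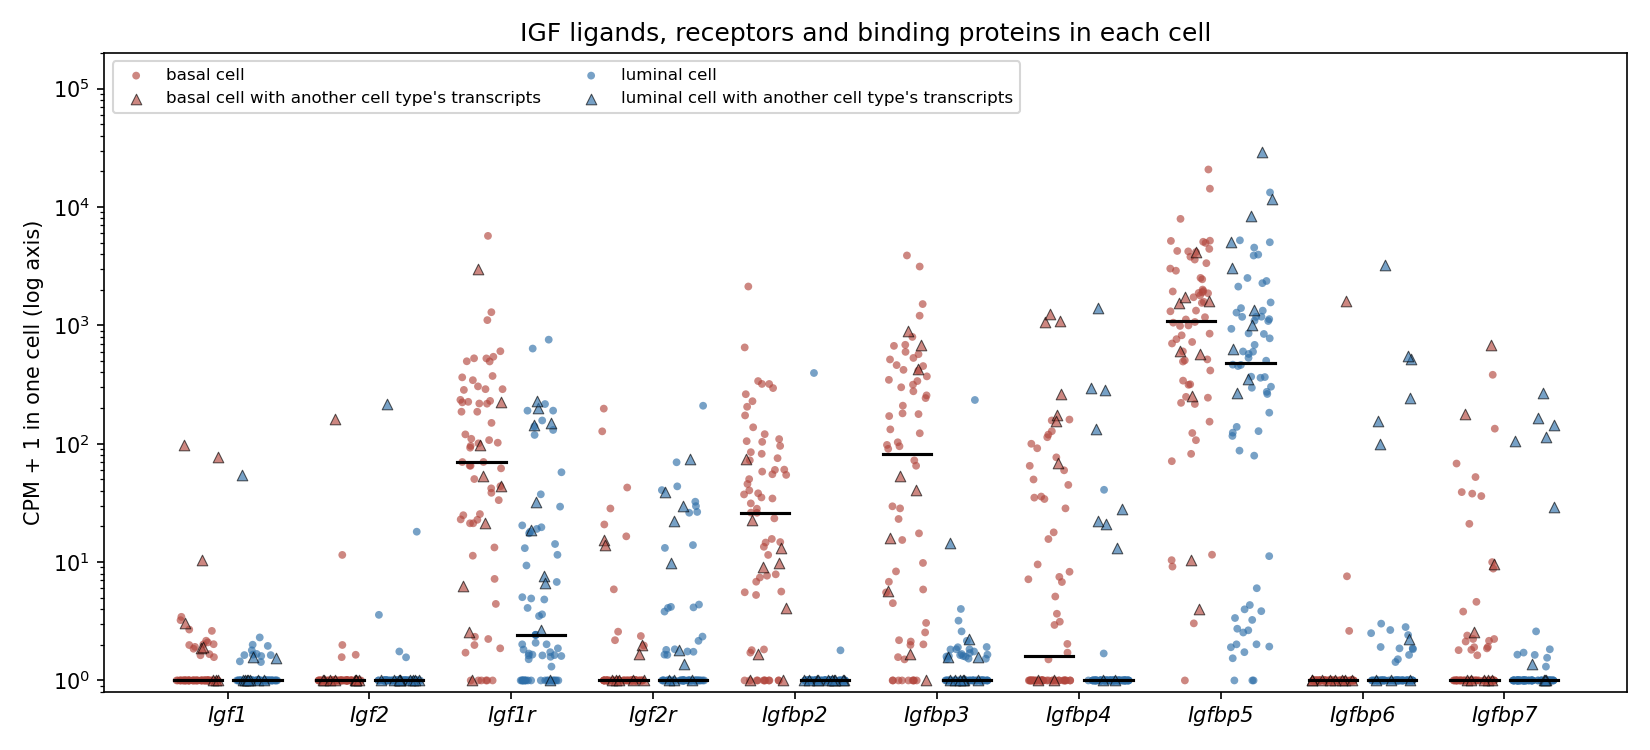
Level of each of the 10 members in each of 72 basal (red) and 76 luminal (blue) cells, as CPM + 1 on a log axis. Bars are medians, and triangles are the 19 cells with transcripts of another cell type. Igfbp5 has medians of 1093 and 483 CPM, and the medians of Igf1, Igf2, Igf2r, Igfbp6 and Igfbp7 are 0 in both populations.

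Neither ligand was a general product of these cells. Igf1, the main growth factor of the axis after birth, ranged from 0 to 95.8 CPM over basal and from 0 to 53.6 CPM over luminal cells, with medians of 0. Summed over the populations it stood at 2.84 CPM (2.49 to 3.23) in basal against 1.10 CPM (0.917 to 1.31) in luminal cells. At 50000 reads it was found in 4 of 72 basal cells (5.56%, 1.53 to 13.6%) and 2 of 76 luminal cells (2.63%, 0.320 to 9.18%). Of its 240 basal reads, 92.1% lay in cells marked for another cell type, chiefly basal cells 71 and 72 with 8 and 12 endothelial markers. Of its 126 luminal reads, 113 lay in cell 61, which had 11 fibroblast markers. Without the 19 marked cells Igf1 stood at 0.252 CPM in basal against 0.111 CPM in luminal cells.

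Igf2, which acts through both the IGF and insulin receptors, rested on even fewer cells. It reached 162 CPM in basal cell 80, which held 174 of the 178 basal reads and 14 endothelial markers, and 214 CPM in luminal cell 55, which held 221 of the 250 luminal reads, 17 endothelial and 14 fibroblast markers. Population sums of 2.11 CPM (1.81 to 2.44) and 2.18 CPM (1.92 to 2.47) thus described 1 cell each. Without the marked cells they were 0.0530 and 0.292 CPM, and of the latter 29 reads most lay in cell 63. Igf2 overlaps Igf2os, which had 1 basal and 3 luminal reads. What part the marked cells' other transcripts have in these reads was not tested.

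Igf1r, the signalling receptor, was the clearest basal-leaning member outside the binding proteins. Its level ranged from 0 to 5699 CPM with a median of 69.1 CPM over basal cells, and from 0 to 756 CPM with a median of 1.43 CPM over luminal cells, so that the 2 ranges overlapped while 31 basal and 13 luminal cells reached 100 CPM. The population level was 190 CPM (187 to 193) in basal against 43.2 CPM (42.0 to 44.4) in luminal cells, a log2 ratio of luminal over basal of -2.11 on the log2(CPM + 1) scale. On plate B, where both populations were present, it was 153 and 52.5 CPM (log2 ratio -1.52). The highest basal cell there was marked cell 63, with 11 endothelial markers, at 2993 CPM, and the next was cell 61 at 526 CPM. The highest luminal cell of plate B was cell 9 at 636 CPM. It was detected in 55 of 72 basal cells (76.4%, 64.9 to 85.6%) and 21 of 76 luminal cells (27.6%, 18.0 to 39.1%). Plate A basal cells (43 of 50) and plate B basal cells (12 of 22) differed in this share, as they did in genes detected. Over all plates the marked cells changed little in the ratio, which was -2.16 without them, but plate B was not run without them. At full depth a read of Igf1r was found in 90.3% of basal and 72.4% of luminal cells.

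Igf2r, which clears Igf2, was low in both. It ranged from 0 to 197 CPM in basal and from 0 to 208 CPM in luminal cells, at population levels of 6.55 CPM (6.01 to 7.12) and 9.40 CPM (8.84 to 9.98). It was found in 8 of 72 basal cells (11.1%, 4.92 to 20.7%) and 13 of 76 luminal cells (17.1%, 9.43 to 27.5%), shares whose intervals overlap. Basal cell 21 alone held 51.0% of the basal reads. On plate B the values were 0.570 and 9.22 CPM and on plates A and C 9.53 and 9.48 CPM, so that the populations were apart on plate B but within counting error of each other between plates A and C. Igf2r overlaps the antisense RNA Airn, which had 45 basal and 169 luminal reads, and the sources used here do not state whether counting used strand.

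Igfbp5 was the leading binding protein of both populations. It binds IGFs, heparin and extracellular matrix. Over basal cells it ranged from 0 to 20743 CPM with a median of 1093 CPM, and over luminal cells from 0 to 29305 CPM with a median of 483 CPM. The population levels were 1994 CPM (1985 to 2004) and 2027 CPM (2019 to 2036), a log2 ratio of 0.02, and on plate B 2453 and 2702 CPM (0.14). It was detected in 67 of 72 basal cells (93.1%, 84.5 to 97.7%) and 58 of 76 luminal cells (76.3%, 65.2 to 85.3%). The equal sums hid an unequal spread. The 10 marked luminal cells held 56.8% of the luminal Igfbp5 reads at 8767 CPM, against 1008 CPM in the other 66, and luminal cell 24, with 12 fibroblast markers, held 34.2% on its own. In basal cells the marked cells held 7.17% of the reads. Without marked cells the levels were 2073 CPM in basal against 1008 CPM in luminal cells, a log2 ratio of -1.04, so that the equality of the populations rests on those cells.

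Igfbp3, the main serum carrier of IGFs, was the most unequal member. Basal cells ranged from 0 to 3894 CPM with a median of 80.4 CPM, and 33 of them reached 100 CPM. Luminal cells had a median of 0 and a maximum of 233 CPM, and only cell 63 reached 100 CPM. Population levels were 306 CPM (303 to 310) and 2.89 CPM (2.59 to 3.22), a log2 ratio of -6.30, and on plate B 249 and 0.243 CPM (-7.65). Igfbp3 was found in 47 of 72 basal cells (65.3%, 53.1 to 76.1%) and 4 of 76 luminal cells (5.26%, 1.45 to 12.9%). Luminal cell 63, the cell with as many basal as luminal markers, held 86.7% of the luminal reads. Without the 3 cells apart from their labels the luminal level was 0.388 CPM and the log2 ratio -7.83. At full depth 26 luminal cells had at least 1 Igfbp3 read, at levels that thinning to 50000 reads mostly removed. Within basal cells the share was 80.0% on plate A (40 of 50) and 31.8% on plate B (7 of 22), while the plate levels were 335 and 249 CPM. The plate B level rested largely on basal cell 85 at 3894 CPM, and the next highest there was cell 95 at 888 CPM.

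Igfbp2, a carrier with a preference for Igf2 that also binds integrins, showed the same lean. It ranged from 0 to 2128 CPM with a median of 25.1 CPM in basal cells, and in luminal cells it was at 0 in all but 2. The population levels were 115 CPM (113 to 117) and 4.25 CPM (3.88 to 4.65), a log2 ratio of -4.47. On plate B they were 197 CPM and 0.0270 CPM, the latter a single read. It was detected in 40 of 72 basal cells (55.6%, 43.4 to 67.3%) and 1 of 76 luminal cells (1.32%, 0.0333 to 7.11%). That luminal cell was again cell 63, with 486 of the 487 luminal reads. Without the 3 cells apart from their labels, 1 luminal read of Igfbp2 remained in 75 cells and the log2 ratio was -6.89. Basal cell 92 (plate B) held 42.2% of the basal reads. Igfbp2 and Igfbp5, a few kilobases apart, thus differed in luminal cells, where 57 cells held Igfbp5 at 50000 reads without Igfbp2.

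**Figure D2:**
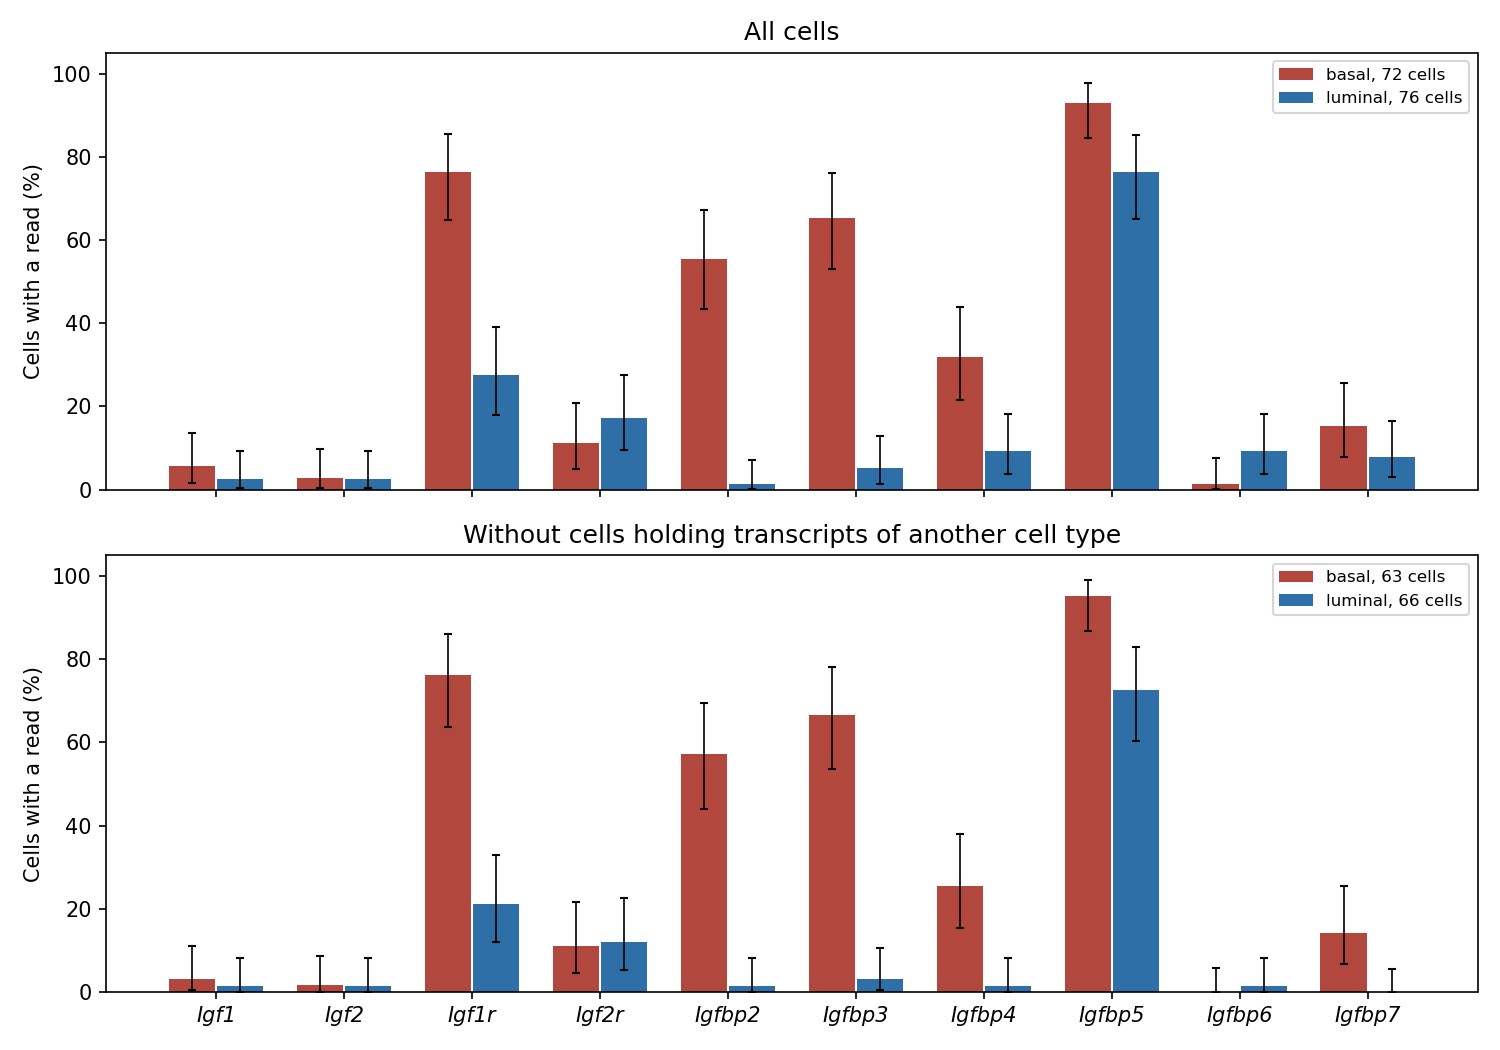
Percent of basal (red) and luminal (blue) cells with at least 1 read of each member at 50000 reads, for all 148 cells (top) and for the 129 cells without transcripts of another cell type (bottom), with exact 95% binomial intervals. Without those cells Igfbp4, Igfbp6 and Igfbp7 drop to at most 1.52% of luminal cells, while Igfbp2, Igfbp3 and Igf1r keep their basal shares.

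Igfbp4, a carrier that pappalysin cleaves when IGF is bound, was read in both populations, but hardly in luminal cells once the marked cells were left out. It ranged from 0 to 1235 CPM in basal and from 0 to 1399 CPM in luminal cells, at population levels of 71.4 CPM (69.6 to 73.2) and 33.3 CPM (32.2 to 34.3). The marked cells held 72.1% of the basal and 98.7% of the luminal reads. Basal cells 71, 72 and 82, each above 1000 CPM, showed 8 to 12 endothelial markers, and luminal cell 54, with 17 fibroblast markers and 3 luminal markers, held 65.5% of the luminal reads. In the other cells the levels were 22.3 and 0.503 CPM, and it was found in 16 of 63 basal cells (25.4%, 15.3 to 37.9%) and 1 of 66 luminal cells (1.52%, 0.0384 to 8.16%). The log2 ratio moved from -1.08 to -3.95. Between basal plate A and luminal plate C, which share no plate, it was 0.82, the opposite sign.

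Igfbp6, which binds Igf2 far more tightly than Igf1, was the single member higher in luminal cells by a log2 ratio of 1 or more, and its reads rested almost wholly on marked cells. Levels of 28.3 CPM (27.1 to 29.4) in basal against 75.7 CPM (74.1 to 77.3) in luminal cells gave a log2 ratio of 1.39. All but 8 of the 2386 basal reads lay in cell 56, with 15 fibroblast markers, at 1612 CPM. Of the luminal reads 99.8% lay in marked cells, led by cell 54 at 3212 CPM with 66.1%. In the remaining cells the levels were 0.106 and 0.181 CPM and the log2 ratio was 0.09. At 50000 reads it was then found in 0 of 63 basal cells, a count compatible with a share of up to 4.76%, and 1 of 66 luminal cells.

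Igfbp7, a low-affinity IGF binder that is abundant in vessel walls, stood at 26.5 CPM (25.4 to 27.7) in basal against 9.45 CPM (8.89 to 10.0) in luminal cells. The largest values were 684 CPM in basal cell 95, with 9 endothelial and 4 pericyte markers, and 266 CPM in luminal cell 71, with 14 endothelial and 15 pericyte markers. Marked cells held 57.4% of the basal and 99.4% of the luminal reads. In the other cells it was found in 9 of 63 basal cells (14.3%, 6.75 to 25.4%) at 12.7 CPM, and in 0 of 66 luminal cells, a count compatible with a share of up to 4.55%, at 0.0704 CPM. Igfbp7 overlaps Polr2b, which had 3779 basal and 19831 luminal reads, so reads of the pair may have been split in counting.

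Set against all genes, 5 of the 10 members (Igf1r, Igfbp2, Igfbp3, Igfbp4 and Igfbp7) were higher in basal cells by a log2 ratio of 1 or more, and 1 (Igfbp6) was higher in luminal cells. Among the 14803 genes with at least 1 CPM in at least 3 cells, which include all 10 members, 18.2% were higher in basal and 28.3% in luminal cells by that measure. The same 5 and 1 members also passed on plate B, where both conditions were met by 10.2% and 21.5% of genes. Marked cells led Igfbp4, Igfbp7 and Igfbp6 on that plate. Igfbp4 was highest in basal cells 71, 72 and 82 (1066, 1089 and 1235 CPM) and Igfbp7 in basal cell 95 (684 CPM). Igfbp6 was highest in luminal cell 24 (155 CPM). Plate B was not run without marked cells. Without the marked cells Igfbp5 joined the basal-leaning set, which then had 6 members, and Igfbp6 left the luminal one. The median log2 ratio was -0.98 over the members and 0.18 over all genes. With 10 genes chosen by name and cells of 1 sample a population, these counts are a description.

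Per length, Igfbp5 remained in first place in both populations. In basal cells the CPM per kilobase of transcript was 341 for Igfbp5, 125 for Igfbp3, 86.5 for Igfbp2, 34.5 for Igfbp4, 21.9 for Igfbp6 and for Igfbp7, 15.9 for Igf1r, 0.733 for Igf2r, 0.498 for Igf2 and 0.364 for Igf1. Igfbp6 and Igfbp7 could not be ordered beyond counting error. In luminal cells it was 346 for Igfbp5, 58.7 for Igfbp6, 16.1 for Igfbp4, 7.79 for Igfbp7, 3.61 for Igf1r, 3.20 for Igfbp2, 1.18 for Igfbp3, 1.05 for Igf2r, 0.515 for Igf2 and 0.141 for Igf1. Igfbp3 and Igf2r could not be ordered there. The places of Igfbp6, Igfbp4 and Igfbp7 rested on marked cells, without which they stood at 0.140, 0.243 and 0.0580 and Igfbp2 came second at 3.68, nearly all of it from cell 63. Spread between cells was far wider than these counting errors, since every member was at 0 in at least 1 cell of each population.

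Of all binding protein reads per base of transcript, Igfbp5 made up 54.0%, Igfbp3 19.8% and Igfbp2 13.7% in basal cells. On plates A and B the Igfbp5 share was 54.1% and 53.9%, while Igfbp3 made up 24.5% and 13.1% and Igfbp2 10.0% and 19.1%. In luminal cells Igfbp5 made up 79.9% and Igfbp6 13.5%. On luminal plate B the Igfbp5 share was 98.0% and on plate C 70.2%, where Igfbp6 reached 19.9%. In cells without transcripts of another cell type, Igfbp5 made up 59.0% in basal and 97.0% in luminal cells, and Igfbp3 and Igfbp2 made up 21.6% and 15.9% in basal cells.

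**Figure D3:**
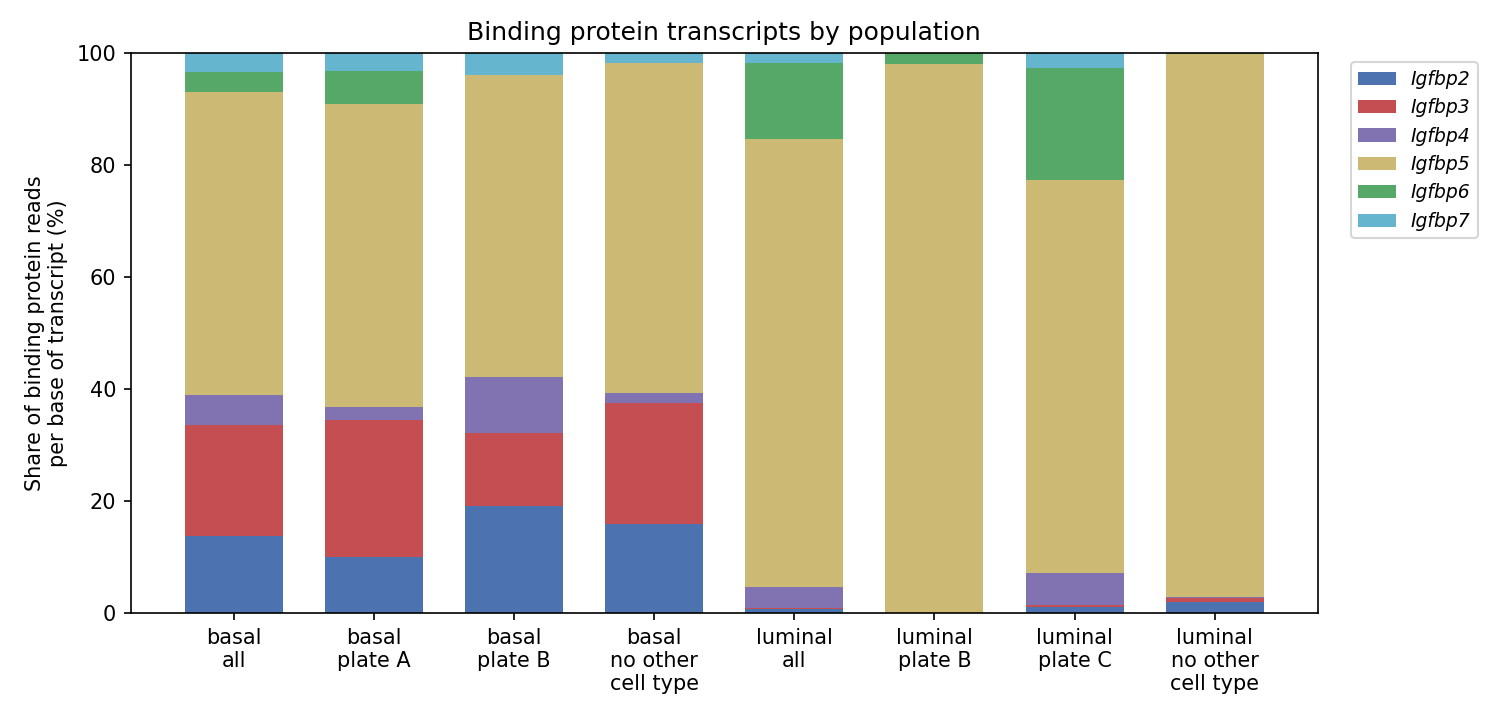
Share of each binding protein among the reads of all 6, divided by transcript length, in percent, for all cells, each plate and the cells without transcripts of another cell type. Igfbp5 makes up 54.0% in basal and 79.9% in luminal cells, and Igfbp3 and Igfbp2 fill most of the remaining basal share.

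The same difference was present cell by cell. At 50000 reads a basal cell showed a median of 3 of the 6 binding proteins and a luminal cell 1. At least 2 were found in 62 of 72 basal cells (86.1%, 75.9 to 93.1%) and in 13 of 76 luminal cells (17.1%, 9.43 to 27.5%). Of those 13 luminal cells, 10 held transcripts of another cell type, and without the marked cells the count was 3 of 66 (4.55%, 0.947 to 12.7%) against 54 of 63 basal cells (85.7%, 74.6 to 93.3%). On plate B, at least 2 were found in 15 of 22 basal and 2 of 24 luminal cells, although basal cells there showed fewer genes than luminal cells. Igfbp5 was the sole one found in 45 luminal cells (59.2%, 47.3 to 70.4%) and in only 7 of the basal cells (9.72%, 4.00 to 19.0%). No binding protein was found in 18 luminal cells (23.7%, 14.7 to 34.8%) and in 0 of 72 basal cells, a count compatible with a share of up to 4.17%. Igfbp5 was the most abundant per length in 44 of 72 basal cells and 54 of the 58 luminal cells with any, and Igfbp3 led in 14 basal cells and Igfbp2 in 6.

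**Figure D4:**
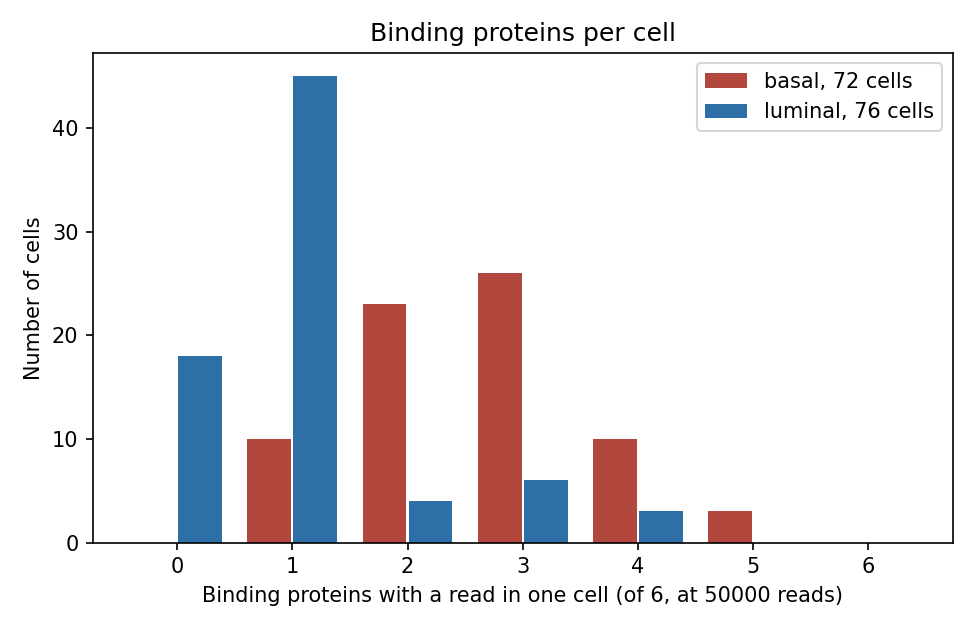
Number of cells (vertical axis) by the number of the 6 binding proteins with a read at 50000 reads (horizontal axis), for 72 basal (red) and 76 luminal (blue) cells. Basal cells lie at 1 to 5 and most at 2 or 3, and 45 luminal cells lie at 1 and 18 at 0.

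The product of the separate shares lay within the counting interval of each pair compared here in basal cells. That interval leaves out that both shares come from the same cells. It therefore cannot tell whether 2 members were found together more often than their separate shares give. Igfbp3 and Igfbp5 were both found in 45 of 72 basal cells (62.5%, 50.3 to 73.6%), against 60.7% for the product of the 2 shares, and Igfbp2 and Igfbp3 in 31 (43.1%, 31.4 to 55.3%), against 36.3%. Igf1r and Igfbp3 were found together in 43 (59.7%, 47.5 to 71.1%), against 49.9%. Of the 47 basal cells with Igfbp3, 43 held Igf1r, against 55 of all 72, and 31 held Igfbp2, against 40 of all 72. Within plates, Igf1r was found in 36 of 40 cells with Igfbp3 on plate A, against 43 of all 50. On plate B it was found in 7 of 7, against 12 of all 22. Igfbp3 and Igf1r were each found less often on plate B, whose basal cells showed fewer genes, and the part of this in the shared cells was not tested.

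Among luminal cells, Igfbp5 was present at 2 separated levels. In 57 of 76 cells it lay at 78.3 CPM or more, with a median of 854 CPM, and in 19 cells at 10.2 CPM or less, with no cell between. Basal cells showed the same gap, with 65 of 72 at 70.2 CPM or more and 7 at 10.5 CPM or less. The limit of 50 CPM used here was set after these values were seen. The 19 low cells were not shallower, with a median of 1688360 reads against 1448950, but showed fewer genes at 50000 reads (2932 against 3655). None of them held transcripts of another cell type, and plate B held 6 and plate C 13 of them. Luminal cells were placed by the share of mature luminal (ML) markers, such as Esr1 and Pgr, among all detected ML and luminal progenitor (LP) markers, such as Kit and Elf5. Of 7 cells with at most 25% ML markers (LP range), 0 were low in Igfbp5. Of 42 cells in the intermediate range 4 were low, and of 27 cells with at least 75% (ML range) 15 were low. Esr1 had a read in 63.2% of the 19 low cells and 52.6% of the 57 others, and Pgr in 68.4% and 56.1%. Low and high cells thus differed little in these ML markers. The share of cells with an Igfbp5 read was 100% (59.0 to 100%), 90.5% (77.4 to 97.3%) and 48.1% (28.7 to 68.1%) in the 3 ranges, and the level 3555, 2837 and 404 CPM. Within plate B the levels were 1087 (1 cell), 4983 and 151 CPM, and within plate C 3884, 1849 and 568 CPM. Marked cell 24 held 82.7% of the intermediate reads of plate B, and 1 cell held 61.8% of the ML reads of plate C. The medians over cells were 1087, 683 and 7.62 CPM on plate B and 3703, 934 and 1.65 CPM on plate C. Without the marked cells the levels over both plates were 3223, 1260 and 196 CPM. The ranges are stretches of a score, not cell types, and 12 of the 76 cells lay within 5 points of a limit. With limits of 40% and 60%, the shares were 93.8%, 100% and 57.5%.

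**Figure D5:**
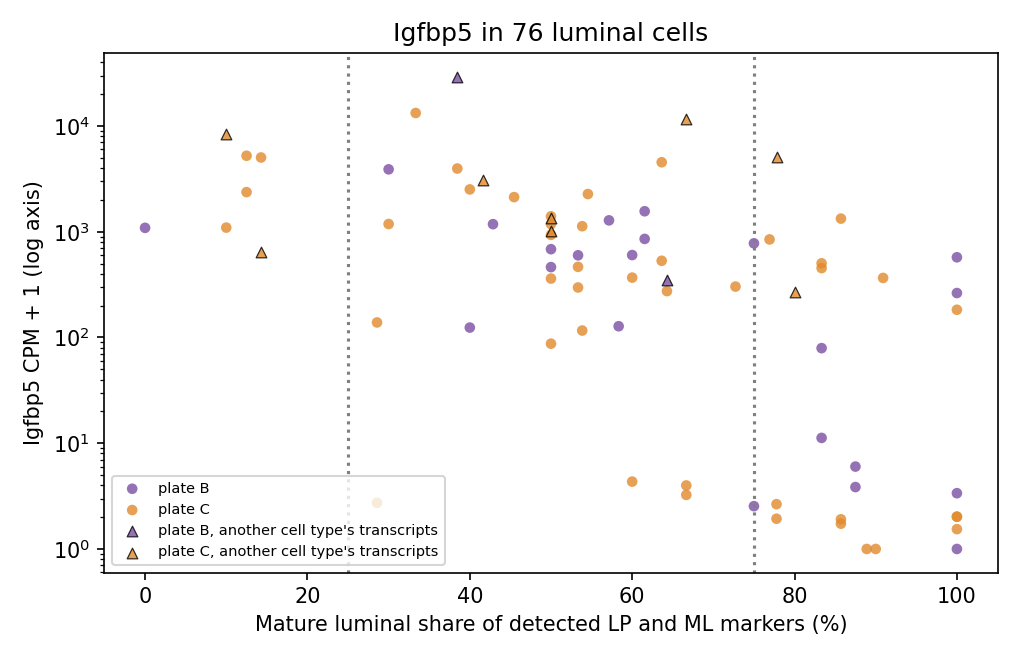
Igfbp5 level (CPM + 1, log axis) in 76 luminal cells against the percent of mature luminal markers among detected LP and ML markers. Colours mark plates B and C, triangles the cells with transcripts of another cell type and dotted lines the range limits of 25% and 75%. The 19 cells at 10.2 CPM or less lie mostly to the right, 15 of them in the ML range.

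The other members differed less clearly along this score. Igf1r was found in 3 of 7, 15 of 42 and 3 of 27 luminal cells of the LP, intermediate and ML ranges, at 81.2, 55.2 and 14.7 CPM, and 1 cell held 92.0% of the reads of the LP range. Igf2r was found in 1 of 7, 5 of 42 and 7 of 27 cells, shares with overlapping intervals. All but 1 of the luminal Igfbp2 reads lay in the ML range, in cell 63.

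The genes whose cell-to-cell levels were most like those of Igfbp5 in luminal cells were Lcn2, Trf and Csn3, which encode the secreted proteins lipocalin 2, transferrin and kappa-casein. Spearman's rho was 0.71, 0.64 and 0.63 over 76 cells, out of 2133 genes with a read in at least 50% of them. Within plates B and C it was 0.73 and 0.69 for Lcn2, 0.73 and 0.60 for Trf, and 0.64 and 0.64 for Csn3. Without marked cells it was 0.80 for Lcn2 and 0.71 for Trf, and Pde4b (0.69) took the place of Csn3. Trf and Csn3 are themselves among the 10 LP markers and Lcn2 is not. Lcn2 had a read in 84.2% of the 57 cells high in Igfbp5 and 10.5% of the 19 low cells. The shares were 80.7% and 26.3% for Trf and 75.4% and 26.3% for Csn3. These genes were picked by their correlation with Igfbp5 in the same cells, so the shares restate it and add no support. Cells of a plate share their processing, and the number of genes detected followed Igfbp5 with a rho of 0.17.

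In basal cells the closest genes were less close. For Igfbp5 they were Gm5526, the smooth muscle myosin gene Myh11 and Gm10080, with rho of 0.45, 0.42 and 0.42 over 72 cells, and the number of genes detected had a rho of -0.12. For Igfbp3 they were Ubap2l, Psma6 and Nfe2l2 (0.50 each), but the number of genes detected alone had a rho of 0.47. For Igfbp2 they were Mrpl17 (0.52), Smim7 (0.48) and Banf1 (0.47), with 0.37 for the number of genes, and for Igf1r Hnrnpab (0.42), Atp1b3 (0.41) and Lars2 (0.40), with 0.25. Without marked cells the 3 closest genes of Igfbp3 were all others (Cks1b, Hp1bp3 and Antxr1), Scn7a took the place of Myh11 for Igfbp5, 2 of the 3 changed for Igfbp2 and for Igf1r, and within plates A and B the rho of Ubap2l with Igfbp3 was 0.23 and 0.82. The levels of Igfbp3 and Igfbp2 thus moved with the number of genes detected, whose part in these lists was not tested.

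Other genes of the axis were found on both sides. Of 39 further genes of the axis, 35 passed the filter on low values, of which 9 were higher in basal and 13 in luminal cells by a log2 ratio of 1 or more, and 8 and 12 of them also on plate B, against the 18.2% and 28.3%, and 10.2% and 21.5%, of all genes given above. Their median log2 ratio was 0.17, close to that of all genes. Of the 7 proteases and inhibitors 6 passed, 3 higher in basal (Pappa, Stc1 and Htra1) and 2 in luminal cells (Stc2 and Ctsd).

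Pappa, the pappalysin that cleaves Igfbp4 and Igfbp5, was higher in basal cells, as were Igfbp2 and Igfbp3. It stood at 221 CPM in basal against 13.0 CPM in luminal cells (log2 ratio -3.98, and -5.33 on plate B) and was found in 56.9% and 18.4% of cells. Luminal cell 41 held 53.6% of the luminal reads, and without the leading cell of each population the levels were 201 and 6.12 CPM. Pappa and Igfbp5 were found together in 40 of 72 basal (55.6%) and 12 of 76 luminal cells (15.8%). The product of the separate shares was close to this, at 53.0% and 14.1%. Igfbp5 was found in 67 of 72 basal cells, so the basal values had little room to differ. Their closeness does not tell whether Pappa and Igfbp5 go together. Stc2, stanniocalcin 2, an inhibitor of pappalysin, was nearly the reverse, at 0.758 CPM in basal against 78.1 CPM in luminal cells (5.49, and 4.30 on plate B), and found in 1.39% and 53.9% of cells. All 64 of its basal reads lay in cell 90, which showed 0 basal markers, so that 0 reads remained in basal cells without it. Of the 41 luminal cells with Stc2, 30 also held Igfbp5, against 58 of all 76, and 4 held Pappa. Its relative Stc1 was higher in basal cells (25.1 and 8.91 CPM, log2 ratio -1.40), with 50.9% and 51.7% of the reads in basal cell 20 and luminal cell 25, without which the levels were 12.5 and 4.37 CPM. Htra1, a secreted serine protease, stood at 76.1 CPM in basal against 10.2 CPM in luminal cells (-2.79), and Ctsd, the lysosomal protease cathepsin D, at 182 and 603 CPM (1.72). Without the leading cells of Htra1, the marked basal cell 56 and luminal cell 61, its levels were 52.4 and 5.99 CPM. Those of Ctsd were 122 and 567 CPM without the marked basal cell 82 and luminal cell 18.

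Igfals, the acid-labile subunit that joins Igfbp3 or Igfbp5 with IGF in a ternary complex, stood at 0.0118 CPM in basal cells, a single read, and 24.0 CPM in luminal cells (log2 ratio 4.63, and 4.13 on plate B). It was found in 0 of 72 basal and 10 of 76 luminal cells. Of those 10, 9 also held Igfbp5, against 58 of all 76 luminal cells. Igfbp1 had 0 basal reads and 0.838 CPM in luminal cells, 75.0% of it in 1 cell.

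Below the receptor, the adaptors Grb10 and Grb14, which restrain insulin and IGF receptor signalling, and Shc1, which links receptors to Ras, were higher in luminal cells. Grb14 stood at 17.5 CPM in basal against 107 CPM in luminal cells (log2 ratio 2.54, and 1.80 on plate B), Grb10 at 0.959 and 29.7 CPM (3.97 and 2.39), and Shc1 at 9.91 and 62.2 CPM (2.53 and 4.12). Marked cells held 97.5% of the basal and 72.6% of the luminal Grb10 reads, and without them the levels were 0.0265 and 9.36 CPM (log2 ratio 3.34). Basal cell 66 held 73.4% of the basal Grb14 reads, and luminal cell 36 held 74.5% of the luminal Irs1 reads. Without the leading cell of each population the levels were 4.70 and 76.3 CPM for Grb14 and 11.4 and 1.20 CPM for Irs1. Irs1, the docking protein of the receptor, was higher in basal cells at 17.0 and 4.59 CPM (-1.69). So was Pik3cb, a catalytic subunit of PI3 kinase, at 37.2 and 14.2 CPM (-1.33) with 50.1% of the basal reads in cell 64 and 18.9 and 8.30 CPM without the leading cells, although its luminal share of cells was the larger (22.4% against 12.5%). The growth hormone receptor Ghr, through which growth hormone raises Igf1, stood at 91.5 and 30.3 CPM (-1.56), with 53.2% of the basal and 56.2% of the luminal reads in 1 cell each, 43.4 and 13.4 CPM without those cells, and shares of 18.1% and 19.7% of cells. Of 11 genes of the PI3 kinase and AKT branch, 2 were higher in basal and 4 in luminal cells, and of the 10 insulin receptor family and adaptor genes 8 passed the filter, with 1 and 3. Read against 18.2% and 28.3% of all genes, these counts do not set either list apart.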

How the data were processed

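The authors captured sorted cells on Fluidigm C1 circuits, made Nextera XT libraries, aligned paired-end reads to mm10 with Subread and counted them per RefSeq gene with featureCounts. The tool versions, strandedness and treatment of multi-mapping reads are not given in the sources used here. The deposited values are raw counts, 1 table per cell. Of 27179 Entrez identifiers 25275 matched a symbol, and 1.94% of counts had none and were left out with 15 mitochondrial and 87 ribosomal protein genes. Basal cells needed 50000 reads and 1000 genes, luminal cells 100000 and 1500, as in the study, which left 148 of 186 cells. Cells were inspected by microscopy before lysis, per the study's methods.

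Summed counts were scaled to CPM and compared as log2 of CPM + 1. Intervals were exact Poisson for levels and Clopper-Pearson for shares. Cells are not replicates and the labels name no mouse, so each population was 1 sample and no test was run. Calculations used Python with numpy, pandas and scipy, and edgeR for TMM factors as an alternative, and were tested on simulated data. The members and lists were chosen with earlier results of these data known. Named were all members, at most 12 other axis genes (10 CPM or more, and past a log2 ratio of 1 the same way over all plates and on plate B, taken by size) and, for members found in at least 50% of a population's cells, the 3 genes of highest Spearman correlation at 50000 reads. Igfbp1 was named outside this rule, as the neighbour of Igfbp3. Protein sequences were not used here. No 2 cells of a population agreed within sampling noise.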

Additional observations from a re-analysis of the deposited data

Results flagged for a closer look

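The cells below the study's limits (24 basal and 14 luminal cells) entered no comparison of the report, other than an alternative run without the limits. In 10 cases a member had more reads there than the 3 that a count of 0 allows, equal to 11.3 CPM for the basal and 7.25 CPM for the luminal sum. In the basal cells Igfbp5 stood at 3897 CPM, Igfbp2 at 848 CPM, Igfbp4 at 386 CPM, Igf1r at 113 CPM, Igfbp3 at 75.0 CPM and Igfbp7 at 18.8 CPM. These basal sums held 266597 reads in all, and 1 cell gave 81.7% of the Igfbp5, 89.4% of the Igfbp2 and 86.4% of the Igfbp4 reads, whereas Igf1r was read in 14 and Igfbp3 in 12 of the 24 cells. In the luminal cells Igfbp5 stood at 157 CPM over 13 of 14 cells, Igf1r at 104 CPM in 1 cell, Igf2r at 16.9 CPM and Igfbp6 at 9.66 CPM. Igfbp2, Igfbp3 and Igfbp7 had 0 reads there, which allows up to 7.25 CPM. Groups of more than 10 cells were not searched for single outlying cells.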

How the results depend on the processing

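No paired analysis was possible because the cell numbers that the 2 populations share pair no cells and no test was run, and plate B, which held both, was run on its own. The count of members higher in basal cells (5) became 3 with 10 CPM added and 3 for basal plate A against luminal plate C, and was 5 to 7 under the other alternatives. The count higher in luminal cells (1) became 2 on plate B alone, 2 for plate A against plate C and 0 without cells holding transcripts of another cell type. The log2 ratio of Igfbp4 reversed to 0.82 for plate A against plate C, and that of Igf1 (-0.87) changed to 0.93. The median number of binding proteins (3 in basal, 1 in luminal cells) became 4 and 2 without thinning, and in basal cells 2 with at least 5 reads and 2 on plate B alone. Leaving out the 3 cells apart from their labels, or these and basal cell 20 and luminal cell 62, alternatives chosen after seeing the data, left these counts and medians as they were. Over 25173 genes with no filter, 11.4% were higher in basal and 17.6% in luminal cells. TMM factors moved log2 ratios by a median of -0.20 over all genes, which gave -0.20 for Igfbp5 and took Igf1 to -1.01. Igfbp2, Igfbp3 and Igf1r were higher in basal cells under each alternative run, at log2 ratios of -3.13 to -7.59, -4.62 to -7.84 and -1.52 to -2.54. Without the leading cell of each population the log2 ratio of Igfbp6 was 4.62, since basal cell 56 then left 8 reads, and that of Igfbp4 -2.09. Genes under about 10 CPM rest on few cells at this depth, and plate and population cannot be told apart for plates A and C.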
